A study of Drosophila melanogaster with 44 samples.

Results

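Aminoacyl-tRNA synthetases, cytosolic and mitochondrial, were examined across 44 arrays of adult female Drosophila melanogaster that carried 1 or 2 chromosomal deletions or none. Members were the genes whose symbol in the platform annotation is a three-letter amino acid name plus RS, with or without the suffix -m, together with GluProRS, alpha-PheRS and beta-PheRS. This gave 32 of 11888 genes, 18 with a name for the cytosolic form and 14 with the suffix -m for the mitochondrial form. The terms cytosolic and mitochondrial below follow these names alone. Whether a gene without the suffix also serves the mitochondrion was not tested. The current gene models hold 35 symbols of this kind; AspRS, MetRS and AlaRS-m were not analysed here. TrpRS had 3 probe sets and each of the others had 1, and the probe set with the highest mean was taken. The probe sets of IleRS, ThrRS and ValRS carry the manufacturer's mark for probes shared between transcripts, and what share of their signal comes from other transcripts was not tested. Of the 32 genes, 30 had a mean log2 value of at least 6 and were tested. GluRS-m and MetRS-m, with means of 5.60 and 5.52, were not. Over the 44 arrays GluProRS, which charges glutamate and proline tRNAs, spanned log2 values of 9.77 to 10.28, CysRS 7.85 to 8.61, PheRS-m 9.18 to 10.06 and MetRS-m 4.90 to 6.05.

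An aminoacyl-tRNA synthetase joins an amino acid to its tRNA, the step that sets which amino acid a codon is read as. Cells need a set of these enzymes for translation in the cytosol and another for the ribosomes of the mitochondrion, and both sets are encoded in the nucleus. Several cytosolic synthetases sit in a multisynthetase complex held together by the scaffold proteins AIMP1, AIMP2 and AIMP3. When charging falls short, uncharged tRNA activates the kinase Gcn2 and, through it, the integrated stress response. Growing egg chambers make and store large amounts of the machinery of translation. The share of synthetase RNA that comes from the ovary in these flies was not measured.

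The flies were heterozygous for 1 or 2 of 7 deletions, named below by their ED numbers. Arm 3R carried Df(3R)ED5071, Df(3R)ED7665 or Df(3R)ED10953, arm 2R carried Df(2R)ED1770 or Df(2R)ED1612, and arm 2L carried Df(2L)ED3 or Df(2L)ED4559. There were 19 arrays of flies with 2 deletions, each a different combination (ED1770 with ED10953 and ED5071 with ED7665 were not analysed here), of which those on the same arm (Df(2L)ED4559/Df(2L)ED3, Df(2R)ED1770/Df(2R)ED1612, Df(3R)ED5071/Df(3R)ED10953 and Df(3R)ED7665/Df(3R)ED10953) carried them on opposite homologs. A further 19 arrays were of flies with 1 deletion (3 arrays each, 2 for ED5071 and ED7665), and 6 were of wild type, whose strain the labels do not name. Each sample was a pool of 15 whole females aged 0 to 24 h and kept at 25 °C.

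The values are log2 expression per probe set, normalised by the authors with RMA, and array medians lay between 5.505 and 5.731. None of the 8 testis and male accessory gland genes on the marker list reached a mean of 6, while 10 germline genes of the ovary did. Ovary genes varied between arrays. The mean of the 10 germline genes, set to 0 at the wild-type mean, stood at 1.08 and 0.87 in wild-type replicates 4 and 5, against -0.76 to -0.09 in the other 4 wild-type arrays, and the eggshell and yolk genes stood at 3.29 and 2.85 in those 2 arrays. Arrays numbered 27 and higher in the labels had germline scores of 0.47 ± 0.41 (SD, n = 19), against -0.13 ± 0.46 (SD, n = 25) in arrays numbered up to 26. All wild-type arrays had low numbers, and all ED5071 and ED7665 carriers had high ones. The RNA is from whole animals, so fewer cells of a type and less RNA per cell cannot be told apart.

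Of the 7 deletions, 3 removed 1 copy of a synthetase gene. SerRS, which charges serine tRNAs, lay inside the ED4559 interval, GlnRS, which charges glutamine tRNAs, inside ED10953, and ArgRS-m, which charges arginine tRNAs of the mitochondrion, inside ED7665. The intervals were mapped, with the synthetases left out, as runs of neighbouring genes that were lower in carriers than in non-carriers of these same arrays. The other genes of an interval were thus chosen as a run for being low in carriers. Their shares called, separations and medians below are descriptions and no separate support. In all 3 genes every carrier lay below every array with 2 copies, and carriers differed from the simple mean of the arrays with 2 copies by -0.98 for SerRS, -0.86 for GlnRS and -0.81 for ArgRS-m on the log2 scale.

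SerRS had log2 values of 8.64, 8.38 and 8.26 in the 3 arrays with ED4559 alone, against a lowest value of 9.29, a median of 9.54 and a highest of 9.82 in the 6 wild-type arrays. With a second deletion it had 8.61 beside ED10953, 8.23 beside ED1770, 8.78 beside ED1612, 8.53 beside ED3, 8.37 beside ED5071 and 8.76 beside ED7665. The 9 carriers therefore spanned 8.23 to 8.78 and the 35 arrays with 2 copies 9.23 to 9.85, with no overlap. Carriers that lay wholly below the other arrays were found for 18 of the 39 tested genes of the interval (46.2%), and for 0.24% of all tested genes, which are the same 18. Across all 44 arrays, with terms for the other deletions and the array numbers, the ED4559 term of SerRS was -1.003 ± 0.061 (SE), or 49.9% of the 2-copy level with a 95% interval of 45.8% to 54.4% (limma, adjusted p = 1.2e-15). Of the interval's genes, 97.4% were called in this term. The level that 1 of 2 copies would give in proportion, 50%, was inside that interval. The other 38 tested genes of the deletion had a median term of -0.88, or 54.4%, and 7 of them had a lower term than SerRS. GABPI and CG17260, its tested neighbours on either side, had terms of -0.92 and -0.78. Carriers of ED4559 alone were 1.11 lower than wild type (exact permutation test, two-sided p = 0.0119, the smallest that 3 against 6 arrays allow). Doubles lay 0.12 above single carriers, a difference not called (exact permutation p = 0.50).

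GlnRS, a synthetase of the multisynthetase complex, had values of 8.02, 8.13 and 7.99 in flies with ED10953 alone, against 8.77, 8.97 and 9.12 as the lowest, median and highest of wild type. Its values in doubles were 7.91 beside ED4559, 8.02 beside ED1612, 7.70 beside ED3, 7.94 beside ED5071 and 8.19 beside ED7665. The highest carrier was again below the lowest of the 36 arrays with 2 copies, at 8.57. This separation was found for 42.1% of the interval's 19 tested genes, against 0.12% of all tested genes. The ED10953 term was -0.90 ± 0.050 (SE), or 53.4% of the 2-copy level with a 95% interval of 49.8% to 57.3% (limma, adjusted p = 1.24e-16), and 94.7% of the interval's genes were called. The 18 other genes had a median of -0.89, and 7 had a lower term. Against wild type, single carriers were 0.92 lower (exact permutation p = 0.0119), and doubles differed from single carriers by -0.09 (exact permutation p = 0.429).

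ArgRS-m had values of 5.72 and 6.01 in flies with ED7665 alone, against 6.61, 6.77 and 7.21 as the lowest, median and highest of wild type. The 5 doubles lay close together, between 5.83 and 5.86. None of the 7 carriers reached the lowest of the 37 arrays with 2 copies, 6.35, a separation that 56.9% of the 51 tested genes of the interval shared, against 0.387% of all tested genes. The ED7665 term was -0.96 ± 0.088 (SE), or 51.3% with a 95% interval of 45.4% to 58.1% (limma, adjusted p = 1.88e-10), and 86.3% of the interval's genes were called. That was close to the middle of its interval, since 25 of the 50 other genes had a lower term and their median was -0.95. Its neighbours differed more from each other, with -0.21 for CG17816 and -0.70 for mRpS9. Single carriers were 0.96 lower than wild type (exact permutation p = 0.0357, the smallest that 2 against 6 arrays allow), and doubles differed from them by -0.02 (exact permutation p = 0.619). Carriers, at 5.72 to 6.01, lay around the mean of 6 used to select tested genes. All 7 carriers also had high array numbers, and against the simple mean of the arrays with 2 copies the difference was -0.81, smaller than the fitted term.

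**Figure D1:**
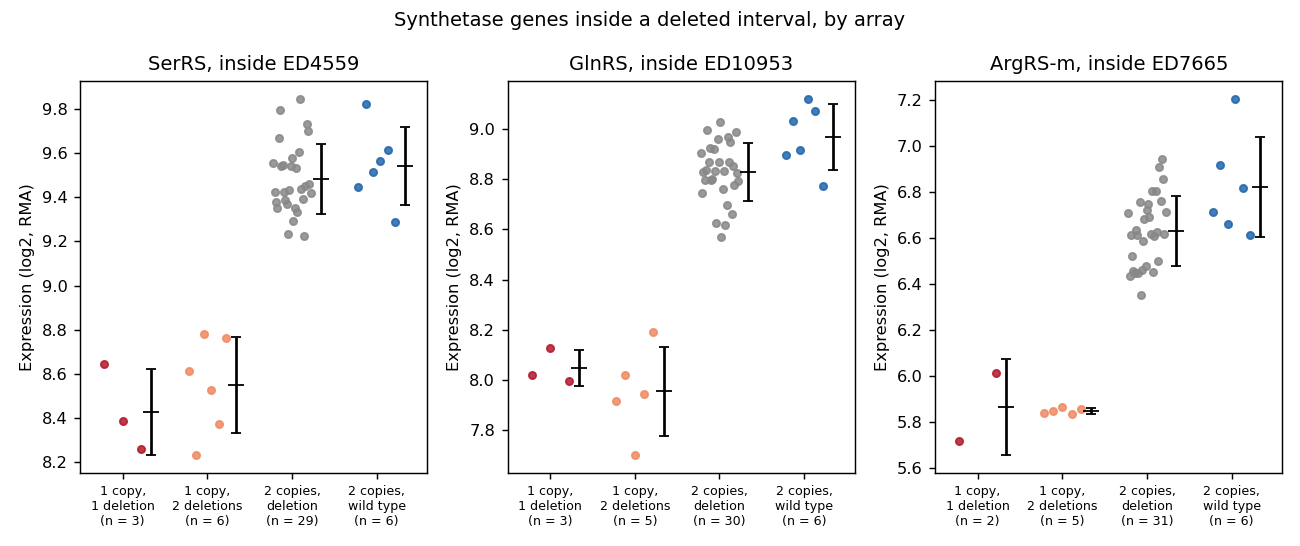
Log2 expression of SerRS, GlnRS and ArgRS-m (vertical axes, one scale per gene) in arrays with 1 copy and 1 deletion, 1 copy and 2 deletions, 2 copies and another deletion, and 2 copies in wild type; each point is an array and the bars give the mean and SD. In each gene all arrays with 1 copy lie below all arrays with 2 copies, with the highest SerRS carrier at 8.78 and the lowest 2-copy array at 9.23.

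The synthetase for the same amino acid in the other compartment was not called in the carriers. The mitochondrial serine enzyme SerRS-m had an ED4559 term of -0.04 ± 0.069 (SE; adjusted p = 0.734), and the cytosolic arginine enzyme ArgRS an ED7665 term of -0.04 ± 0.082 (SE; adjusted p = 0.999); GlnRS has no -m partner among the members. AIMP1, a scaffold protein of the multisynthetase complex and no synthetase, lay inside ED1770. Unlike the members, AIMP1 was among the genes used to map its interval. It had 8.79, 8.97 and 8.95 in flies with ED1770 alone and 8.81 to 8.92 in the 5 doubles, against 9.46, 9.63 and 9.81 as the lowest, median and highest of wild type. Its term was -0.69 ± 0.049 (SE), or 62.2% with a 95% interval of 58.1% to 66.6% (limma, adjusted p = 5.21e-14). In this interval 95% of the genes were called, and carriers lay wholly below the other arrays for 60% of them, AIMP1 included, against 0.494% of all tested genes; 55 of the 59 others had a lower term than AIMP1, with a median of -0.95.

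The remaining 27 tested synthetases, 16 cytosolic and 11 mitochondrial, had 2 copies in every array. None of them was called between the 19 arrays with single deletions and the 6 of wild type, where 1.28% of all tested genes were called (limma, adjusted p under 0.05), and 1 of 27 had an unadjusted p under 0.05, against 1514 of all 7193 tested genes. Their differences ran from -0.13 to 0.15 with a median of 0.0069, against a median of -0.0028 over all tested genes, and 15 were above 0. IleRS, the isoleucine enzyme, had 9.08, 9.33 and 9.91 as the lowest, median and highest of the 19 single-deletion arrays, against 8.96, 9.28 and 9.71 in wild type, a fitted difference of 0.15 ± 0.14 (SE; adjusted p = 0.583). That difference turned to -0.15 with the array-number split as a block and to -0.12 among arrays numbered up to 26, and was 0.30 without wild-type replicates 4 and 5; none of these was called. CysRS-m, the mitochondrial cysteine enzyme, had 7.52, 7.72 and 8.07 against 7.47, 7.59 and 7.86, a difference of 0.14 ± 0.078 (adjusted p = 0.331). ProRS-m, the mitochondrial proline enzyme, had 6.63, 6.91 and 7.19 against 6.88, 7.04 and 7.20, a difference of -0.13 ± 0.065 (adjusted p = 0.253). The groups overlapped in all of these 3 genes, which had the largest differences. Without wild-type replicates 4 and 5, or among arrays numbered up to 26, limma again called 0.

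Taken one deletion at a time against wild type, none of the 29 or 30 tested 2-copy synthetases was called in any of the 7 contrasts, in which between 0.0134% and 0.363% of all tested genes were called (0.0537% for ED4559, 0.0134% for ED3 and ED1612, 0.0539% for ED1770, 0.363% for ED5071, 0.0269% for ED7665 and 0.121% for ED10953). At an unadjusted p under 0.05 there were 3 for ED1612, 1 each for ED4559, ED3 and ED5071, and 0 for the other 3; over all genes there were 826 of 7435 for ED1612 and 1204 of 7434 for ED5071. The differences spanned -0.29 to 0.34. IleRS had 9.61 and 9.65 in ED5071 flies, 0.34 above wild type on average (adjusted p = 0.489), and 9.57 and 9.68 in ED7665 flies, 0.33 above (adjusted p = 0.61). ThrRS, the threonine enzyme, had 9.93 and 9.76 in ED5071 flies, against 9.29, 9.44 and 9.83 as the lowest, median and highest of wild type (difference 0.31, adjusted p = 0.307). Both genotypes lie wholly among the high array numbers and wild type among the low ones, so array number and genotype cannot be told apart in these contrasts.

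The 7 deletions did not differ from each other in any of the 27 genes by limma's F test, which called 0.0973% of all tested genes; 1 member had an unadjusted p under 0.05 (296 of all 7193 genes did), AsnRS-m, the mitochondrial asparagine enzyme. Nor was a member called between doubles and singles, where limma called no gene at all (0%, with 258 genes at an unadjusted p under 0.05). There, 23 of the 27 differences were below 0, with a median of -0.05 against -0.02 over all tested genes. CysRS, the cytosolic cysteine enzyme, had 7.85, 8.13 and 8.39 as the lowest, median and highest of the doubles, against 8.10, 8.25 and 8.48 in singles, a difference of -0.14 ± 0.049 (SE; adjusted p = 0.9999) and the 1 member with an unadjusted p under 0.05. GlyRS, the glycine enzyme, had 9.17, 9.51 and 9.76 in doubles against 9.32, 9.68 and 9.97 in singles, a difference of -0.11 ± 0.058 (adjusted p = 0.9999). LeuRS, the leucine enzyme, differed by -0.09 ± 0.072 (adjusted p = 0.9999). The groups overlapped in each of these genes.

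Comparing all carriers of a deletion with all non-carriers, with the array numbers as a further term, used every array and called 2 of 207 terms. For ED5071 and ED7665, whose carriers all had high array numbers, the term depends on the 5 high-numbered arrays that carry neither. Over the 207 terms, the estimates ran from -0.34 to 0.19 and 159 were below 0. The share below 0 over all tested genes was not counted. By deletion, the median of the members ran from -0.15 for ED5071 to 0.01 for ED10953. Over all tested genes it ran from -0.05 for ED5071 to 0.0066 for ED3. The members vary together over the same arrays, so the 207 terms are not independent. ArgRS fell in ED1770 carriers, a term in which 0.795% of all tested genes were called. It had 8.44, 8.68 and 9.11 as the lowest, median and highest of the 8 carriers, against 8.69, 8.87 and 9.33 in the 36 non-carriers. The term was -0.23 ± 0.058 (SE; adjusted p = 0.042), or 85.1% of the level in non-carriers. The carriers were lowest among low array numbers, where they had 8.57 ± 0.11 (SD, n = 5) against 8.84 ± 0.13 (SD, n = 20) in non-carriers; among high numbers they had 8.93 ± 0.16 (SD, n = 3) against 9.03 ± 0.17 (SD, n = 16). LeuRS-m, the mitochondrial leucine enzyme, fell in ED5071 carriers, a term with 2.23% of all tested genes called. The 7 carriers, all numbered 27 and higher, had 7.55, 7.67 and 7.94, against 7.50, 7.82 and 8.12 in the 37 non-carriers, which is a term of -0.29 ± 0.073 (adjusted p = 0.021), or 81.6%. Among the high array numbers alone the carriers averaged 7.72 ± 0.14 (SD, n = 7), against 7.91 ± 0.13 (SD, n = 12) in non-carriers. The groups overlapped in both genes.

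Both calls were near the threshold. Of the 44 fits that each left out 1 array, ArgRS kept its call in 30 and LeuRS-m in 38, and without the array-number term neither was called (-0.24, adjusted p = 0.157, and -0.12, adjusted p = 0.172), while 3 other member terms were. In the other terms no 2-copy member was called, with 1.63% of all genes called for ED4559, 1.13% for ED3, 0.484% for ED1612, 0.269% for ED7665 and 7.57% for ED10953. In ED5071 carriers 26 of 30 members had a term below 0, with a median of -0.15 against -0.05 over all tested genes. In ED5071 singles against wild type the direction was the other one, with 22 of 30 members above 0 and a median of 0.08. That contrast has no array-number term and sets high-numbered arrays against low-numbered ones, so array number and genotype cannot be told apart in it. The ED5071 carrier term has such a term, but depends on the few high-numbered arrays without ED5071 or ED7665, which varied together. In the carrier term HisRS, the histidine enzyme, stood at -0.23 (adjusted p = 0.0598), LeuRS at -0.33 (adjusted p = 0.0762) and IleRS at -0.34 (adjusted p = 0.0936). All 18 cytosolic members had a term below 0 in ED3 carriers, with a median of -0.09 against 0.0066 over all tested genes, and none was called.

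**Figure D2:**
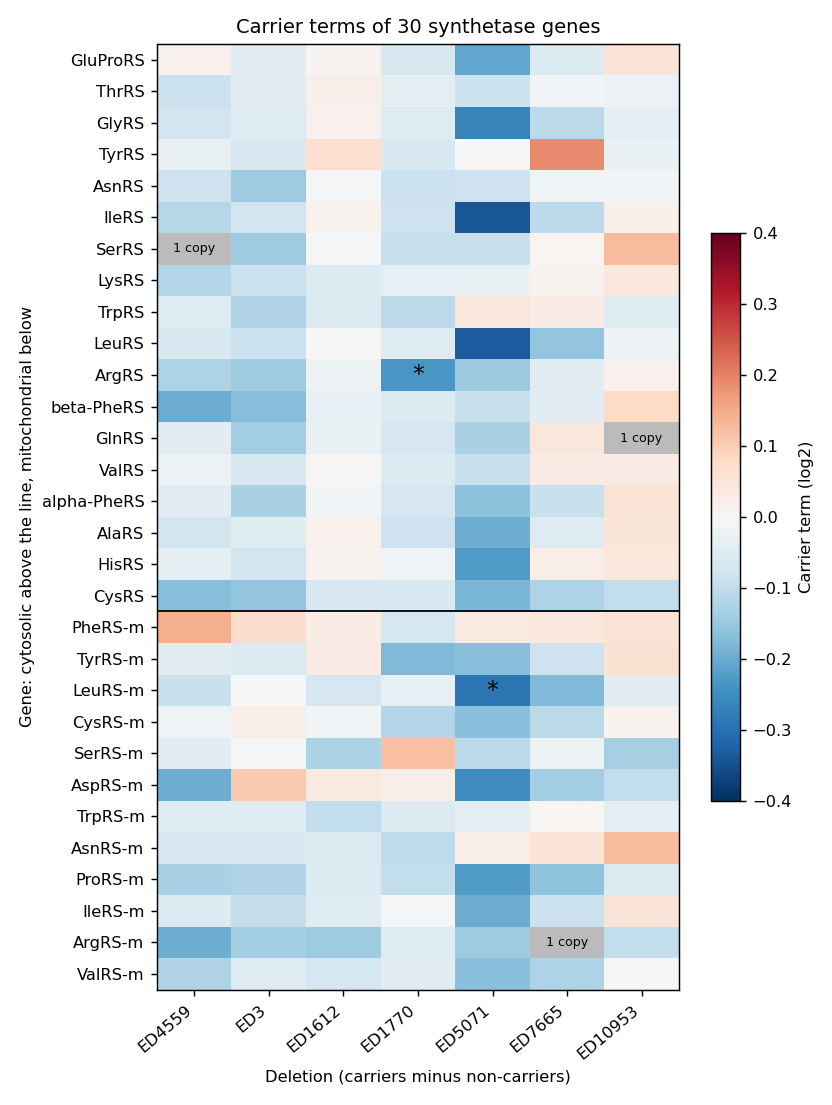
Carrier terms on the log2 scale (colour, blue lower and red higher in carriers) of the 30 tested synthetase genes (rows, cytosolic above the line and mitochondrial below) for the 7 deletions (columns), with asterisks at an adjusted p under 0.05 and grey cells where the gene itself has 1 copy. The 2 asterisks are ArgRS in ED1770 and LeuRS-m in ED5071, and the ED5071 column is mostly blue.

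With the germline score added as a covariate, the same 7 terms held 19 calls among 2-copy members and 3702 over all tested genes, against 2 and 1051 without it. In this fit the term of ArgRS in ED1770 was -0.26 (adjusted p = 0.000155) and that of LeuRS-m in ED5071 -0.26 (adjusted p = 0.0131). In ED5071 carriers LeuRS (-0.23), IleRS (-0.23) and HisRS (-0.20) were also called and lower. That made 4 of 30 members, near the 10.5% of all tested genes called in this term. The plain mean of IleRS was not lower, at 9.41 ± 0.22 in the 7 ED5071 carriers and 9.37 ± 0.29 (SD) in the 37 non-carriers. All of these carriers had high array numbers, while the non-carriers lay on both sides of the split. Among the high array numbers alone, IleRS spanned 9.06 to 9.65 in carriers and 9.34 to 9.91 in non-carriers. ED1770 carriers had lower TyrRS-m (-0.17) and TrpRS (-0.15), the mitochondrial tyrosine and cytosolic tryptophan enzymes, with 4.48% of all genes called. In ED3 carriers ArgRS, CysRS, GlnRS and beta-PheRS, a subunit of the phenylalanine enzyme, were lower by 0.13 to 0.16 (background 6.18%), and in ED4559 carriers ArgRS-m, AspRS-m, CysRS and beta-PheRS were lower by 0.14 to 0.18 (background 5.65%). In ED10953 carriers AsnRS-m, LysRS, SerRS and beta-PheRS were higher by 0.14 to 0.17. These 4 of 29 members were a smaller share than the 19.4% of all genes called in this term. No member was called for ED1612 or ED7665, where 2.86% and 0.592% of all genes were.

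More synthetases differed with array number than with any deletion. Between arrays numbered 27 and higher and those up to 26, with the deletions as further terms, 12 of the 27 members were called, 10 higher and 2 lower. All ED5071 and ED7665 carriers had high numbers, and each of these deletions had its own term. The fitted difference is therefore set only by the 5 high-numbered arrays that carry neither. Over all tested genes 41.4% were called, 24.4% higher and 17% lower, so the share called is near the background. The median of the 27 was 0.14, against 0.06 over all tested genes. Of the cytosolic members 5 were higher and 1 lower out of 16, and of the mitochondrial ones 5 were higher and 1 lower out of 11.

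IleRS had 9.06, 9.62 and 9.91 as the lowest, median and highest of the arrays numbered 27 and higher, against 8.96, 9.17 and 9.71 in those up to 26. The difference in the fit was 0.52 ± 0.093 (SE), a fold of 1.43 (limma, adjusted p = 3.4e-05). LeuRS had 8.72, 9.19 and 9.53 against 8.61, 8.85 and 9.29, a difference of 0.39 ± 0.085 (adjusted p = 0.000342). ArgRS had 8.74, 9.04 and 9.33 against 8.44, 8.77 and 9.17, a difference of 0.27 ± 0.069 (adjusted p = 0.00202). The values of the 2 sides overlapped in these 3 cytosolic enzymes, for isoleucine, leucine and arginine. AlaRS, the alanine enzyme, had 8.06, 8.48 and 8.79 against 8.09, 8.27 and 8.60 (difference 0.24 ± 0.074, adjusted p = 0.0103), and GlyRS differed by 0.21 (adjusted p = 0.0388).

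Among the mitochondrial enzymes, IleRS-m had 6.62, 6.91 and 7.30 in arrays numbered 27 and higher, against 6.50, 6.71 and 7.05 in those up to 26, a difference of 0.27 ± 0.085 (adjusted p = 0.0107). CysRS-m had 7.53, 7.81 and 8.07 against 7.39, 7.63 and 7.94 (0.26 ± 0.066, adjusted p = 0.00187), and AspRS-m, the aspartate enzyme, 6.73, 7.35 and 7.57 against 6.77, 7.18 and 7.66 (0.25 ± 0.098, adjusted p = 0.0403). LeuRS-m and TyrRS-m were higher by 0.21 and 0.20. PheRS-m, the single-chain phenylalanine enzyme of the mitochondrion, went the other way, with 9.24, 9.53 and 9.78 in the high-numbered arrays, against 9.18, 9.86 and 10.06 in the low-numbered ones. It fell by 0.31 on the log2 scale (SE 0.079, adjusted p = 0.00177). TyrRS, the cytosolic tyrosine enzyme, had 9.12, 9.34 and 9.65 against 9.26, 9.45 and 9.67 and fell by 0.17 (SE 0.053, adjusted p = 0.00968). Ranges overlapped in all of these genes.

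The same genotypes could be compared across the split in 5 deletions, whose replicate 3 had a high number and whose replicates 1 and 2 had low ones. IleRS had 9.75 in ED3 replicate 3, against 9.17 and 9.23 in replicates 1 and 2, and 9.91 in ED1770 replicate 3, against 9.13 and 9.11. PheRS-m had 9.52 in ED3 replicate 3, against 9.81 and 9.78, and 9.53 in ED1770 replicate 3, against 9.85 in each of the others. In all 5 deletions replicate 3 was above both of the others for IleRS, LeuRS, ArgRS, AlaRS, HisRS, CysRS-m, TyrRS-m, LeuRS-m and SerRS-m, and below both for PheRS-m and TyrRS. The share of all tested genes that did so was not counted. With the ED5071 and ED7665 terms in the fit, these 5 arrays alone set the split difference tested above. Their deviations from the genotype means correlated with each other (r of 0.553 to 0.842). These arrays are therefore not 5 independent comparisons, while the p values of the split treat them as independent. The marker lists moved with the same split. Of the 10 germline genes 7 were called higher, of the 9 digestive proteases 7 were called higher, and of the 4 neuron genes 3 were called lower, with mean scores, on the scale of the germline score, of 1.44 ± 0.31 against 0.38 ± 0.84 for the digestive list and -0.36 ± 0.26 against 0.13 ± 0.26 for the neuron list (SD, n = 19 and n = 25). With the germline score as a covariate, 7 members were called (background 51.1%). CysRS-m (0.29), IleRS (0.26), TyrRS-m (0.24) and LeuRS (0.17) were higher and TrpRS (-0.37), LysRS (-0.23) and TyrRS (-0.23) lower; the part of other tissues was not tested.

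**Figure D3:**
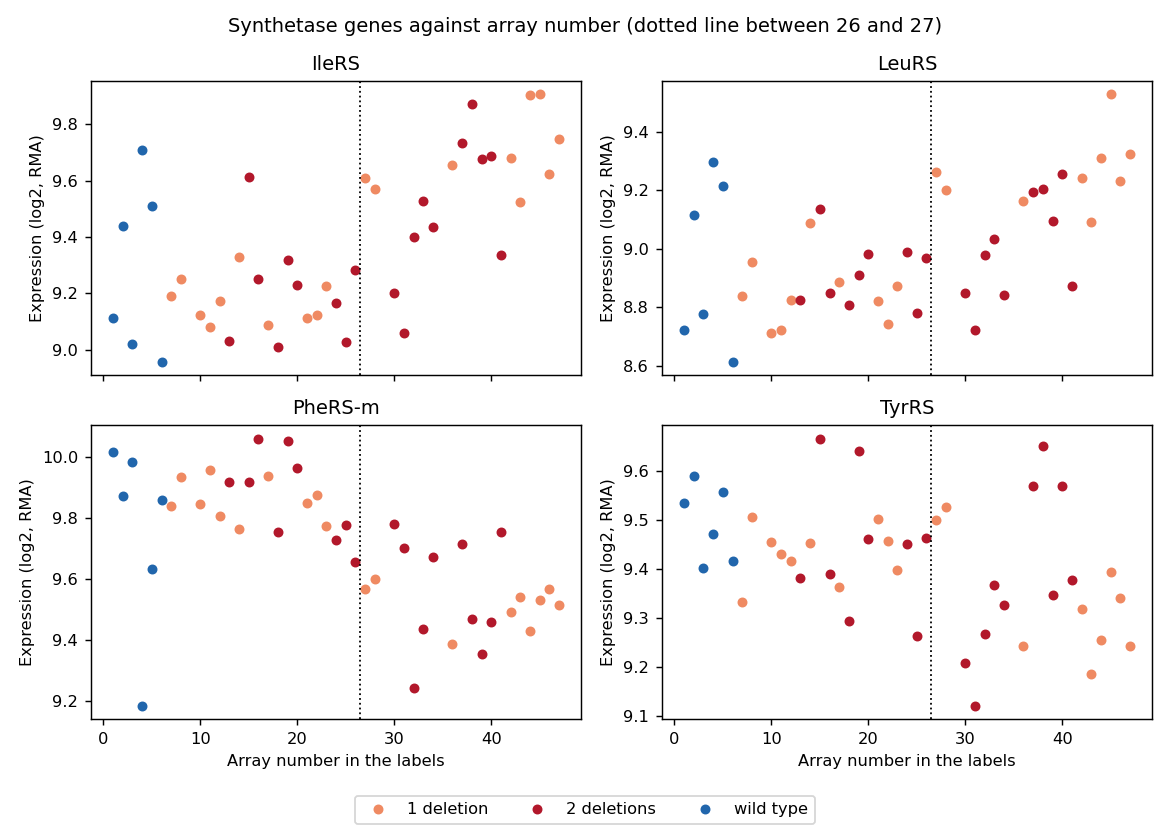
Log2 expression of IleRS, LeuRS, PheRS-m and TyrRS (vertical axes) against the array number in the labels (horizontal axis), with flies of 1 deletion in orange, 2 deletions in red and wild type in blue, 1 point per array. IleRS and LeuRS are mostly higher, and PheRS-m and TyrRS mostly lower, to the right of the dotted line; wild-type replicate 4 lies among the high IleRS values at 9.71 and is the lowest PheRS-m value at 9.18.

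Expression of 18 synthetases rose with the level of the germline genes, which are made in the nurse cells and oocyte of the ovary. In a fit that held the deletions and the array-number split constant, 19 of 27 members had a slope on the germline score that was called, 18 positive and 1 negative. Over all genes 73.7% were called, 38.6% with a positive and 35.1% with a negative slope. The synthetases' median slope was 0.23 log2 per log2 unit of the germline score, against 0.01 over all tested genes. Of the 16 cytosolic members 13 were called and all 16 slopes were above 0; of the 11 mitochondrial members 5 were called with a positive and 1 with a negative slope.

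TrpRS had 9.65 and 9.50 in wild-type replicates 4 and 5, whose germline scores were high, against 8.81 to 9.31 in the other 4 wild-type arrays. Its slope over all arrays was 0.37 ± 0.038 (SE; limma, adjusted p = 6.97e-11), and 0.17 with the mean of its 3 probe sets (adjusted p = 0.001). AspRS-m had 7.66 and 7.55 in replicates 4 and 5 against 6.77 to 7.21 (slope 0.38 ± 0.043, adjusted p = 8.74e-10). LysRS, the lysine enzyme, had 9.67 and 9.48 against 8.999 to 9.39 (slope 0.35 ± 0.041, adjusted p = 1.95e-09), and IleRS 9.71 and 9.51 against 8.96 to 9.44 (slope 0.34 ± 0.044, adjusted p = 1.22e-08). The wild-type arrays with high germline scores were above all the others in each of these 4 genes. ValRS-m, the mitochondrial valine enzyme, had 7.34 in replicate 4 and 6.59 in replicate 5, against 6.09 to 6.58 (slope 0.36 ± 0.060, adjusted p = 1.78e-06). PheRS-m again ran the other way, with 9.18 and 9.63 in replicates 4 and 5 against 9.86 to 10.02, and a slope of -0.25 ± 0.045 (adjusted p = 8.56e-06). CysRS-m (-0.04, adjusted p = 0.469), TyrRS-m (-0.05, adjusted p = 0.339) and TrpRS-m (0.07, adjusted p = 0.204) had the slopes nearest 0.

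Slopes were of the same sign on each side of the array-number split in all 27 members. IleRS had 0.42 ± 0.088 (SE) among arrays numbered 27 and higher and 0.31 ± 0.057 among those up to 26, TrpRS 0.37 ± 0.072 and 0.38 ± 0.050, and PheRS-m -0.22 ± 0.080 and -0.26 ± 0.062. Within those sides 14 and 18 members were called, against 36.9% and 68.1% of all tested genes. Without wild-type replicates 4 and 5, 21 were called (58.6% of all genes), and PheRS-m had a slope of -0.16 ± 0.051. Eggshell and yolk genes (10 of 10 called positive), digestive proteases (9 of 9 positive), flight muscle (5 of 5 negative) and neuron genes (4 of 4 negative) also moved with the germline score, and their part in these slopes was not tested. The 3 probe sets of TrpRS disagreed. Their correlations with the germline score over 44 arrays were 0.557 for the one used, with a mean of 9.11, 0.491 for one with a mean of 7.93 and -0.566 for one with a mean of 5.34.

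**Figure D4:**
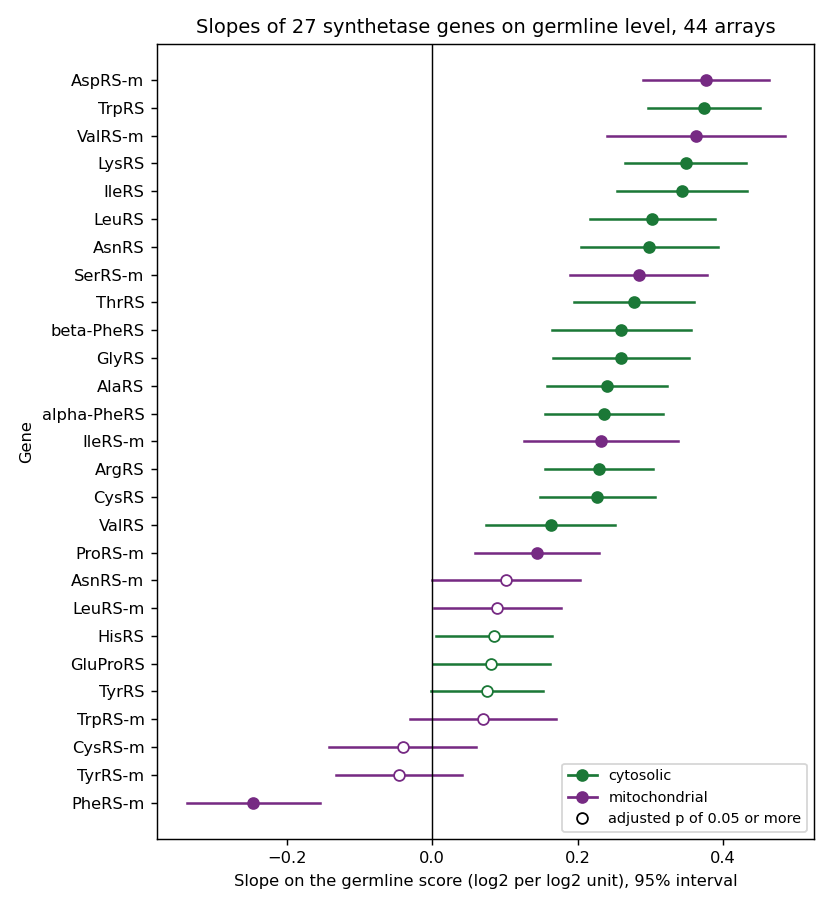
Slope of each of the 27 synthetases with 2 copies in all arrays on the germline score (horizontal axis, log2 per log2 unit, with 95% intervals), cytosolic in green and mitochondrial in purple, open circles where the adjusted p is 0.05 or more. Slopes run from -0.25 for PheRS-m to 0.38 for AspRS-m, and all 16 cytosolic slopes lie to the right of 0.

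**Figure D5:**
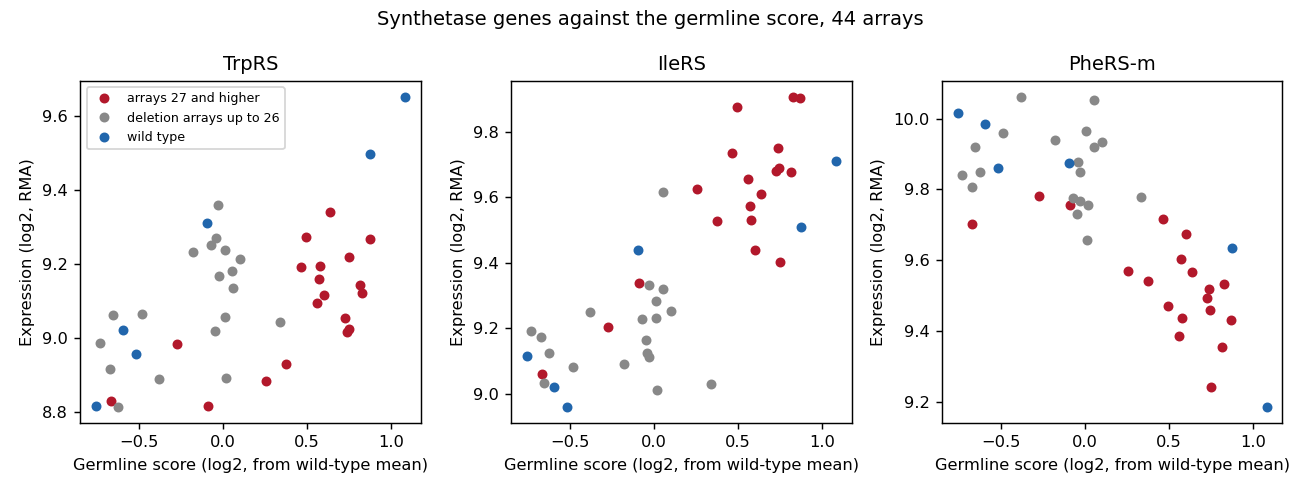
Log2 expression of TrpRS, IleRS and PheRS-m (vertical axes) against the germline score (horizontal axis, log2 from the wild-type mean) in 44 arrays, with arrays numbered 27 and higher in red, deletion arrays up to 26 in grey and wild type in blue. The 2 wild-type arrays with scores of 1.08 and 0.87 have the highest TrpRS values, 9.65 and 9.50, and lie at 9.18 and 9.63 for PheRS-m.

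Pairs of synthetases for the same amino acid varied together to different degrees. In 10 such relations, 9 of them between a cytosolic and a mitochondrial enzyme, the closest were the alpha and beta subunits of the cytosolic phenylalanine enzyme, which form 1 protein. Over 44 arrays alpha-PheRS and beta-PheRS had Pearson's r = 0.846 and Spearman's rho = 0.832 (permutation tests, p = 1e-05 each, the smallest that 100000 permutations give, and adjusted p = 5e-05). The r was 0.838 without the 2 arrays farthest from the alpha-PheRS median, 0.854 among arrays numbered 27 and higher and 0.853 among those up to 26. IleRS and IleRS-m had r = 0.829 and rho = 0.809 (permutation p = 1e-05, adjusted p = 5e-05), with 0.787 without the 2 farthest arrays and 0.873 and 0.712 on the high and low side. ArgRS and ArgRS-m (r = 0.584, rho = 0.505, 37 arrays), LeuRS and LeuRS-m (r = 0.571, rho = 0.516) and AsnRS and AsnRS-m (r = 0.521, rho = 0.511) were also called, with adjusted permutation p of 0.000375, 0.0003 and 0.00038 for r. CysRS and CysRS-m (r = 0.041, rho = 0.146, adjusted permutation p = 0.792), SerRS and SerRS-m in the 35 arrays with 2 copies (r = 0.076, rho = 0.153, adjusted p = 0.74 by permutation), TrpRS and TrpRS-m (r = 0.292), ValRS and ValRS-m (r = 0.270) and TyrRS and TyrRS-m (r = 0.163) were not. On the high and the low side of the array-number split r was 0.744 and 0.356 for the leucine pair, 0.60 and 0.551 for arginine, 0.669 and 0.513 for asparagine, 0.364 and -0.215 for cysteine, and 0.113 and 0.054 for serine. It was 0.393 and 0.401 for tryptophan, 0.275 and 0.311 for valine and 0.274 and 0.493 for tyrosine. Each of these last pairs was closer within each side than over all arrays, as were alpha-PheRS and beta-PheRS. The cysteine pair differed in sign between the sides. All arrays share the swings in germline and gut genes described above, while the permutations treat the arrays as exchangeable. How often other pairs of genes vary together as closely was not tested, so the p values do not set these pairs apart from other genes.

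When all tested genes were ranked by their Spearman correlation with each 2-copy member, 8 of the 27 members had another synthetase among the 3 most alike. IleRS was the gene most like LeuRS (0.917) and ArgRS (0.878), AlaRS the one most like GlyRS (0.884), and LysRS the one most like AsnRS (0.889), alpha-PheRS (0.877) and beta-PheRS (0.894). beta-PheRS stood 28th among the genes most like alpha-PheRS, at 0.832. These are descriptions over 44 arrays with a shared trend, and how often the members of other gene sets rank so close to each other was not tested.

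Genes that work beside the synthetases were taken from 6 lists. Of their 37 tested members with 2 copies, limma called none between single deletions and wild type (6 had an unadjusted p under 0.05), 9 were higher and 5 lower in arrays numbered 27 and higher than in those up to 26, and 20 had a positive and 8 a negative slope on the germline score. Over all genes these shares were 24.4% and 17% for the split and 38.6% and 35.1% for the slope. Gcn2, the kinase that senses uncharged tRNA, was 0.56 higher in the high-numbered arrays (adjusted p = 5.94e-05), and its slope on the germline score was 0.40 (adjusted p = 7.2e-10). Nmdmc, a mitochondrial folate enzyme induced in the integrated stress response, was lower by 0.51 in the high-numbered arrays (adjusted p = 0.00812), and AIMP3 was lower by 0.32 (adjusted p = 6.88e-05). AsnS, asparagine synthetase, was higher in ED4559 carriers (0.35, adjusted p = 0.0417), which have 1 copy of SerRS, as was path, an amino acid transporter (0.32, adjusted p = 0.0194), in a term with 1.63% of all genes called. On the integrated stress response list, which holds AsnS, 5 of 9 tested genes were below 0 in this term (median -0.012). On the growth and amino acid sensing list, which holds path, 4 of 7 were (median -0.027). With ED4559 alone against wild type, limma called no gene of either list (smallest adjusted p of 0.656 and 0.443). In ED10953 carriers, which have 1 copy of GlnRS, path (-0.33, adjusted p = 0.00695) and slif, another amino acid transporter (-0.26, adjusted p = 0.0237), were lower, with 7.57% of all genes called. In ED5071 carriers mEFG1, a mitochondrial elongation factor, was lower (-0.28, adjusted p = 0.0142; 2.23% of all genes). The other 4 terms held no call among these genes. Gcn2 and crc, the fly counterpart of the transcription factor ATF4, were not called in ED4559 carriers. Each deletion removes many other genes, and a link between these calls and the single copies of SerRS or GlnRS was not tested.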

How the data were processed

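RNA of whole adult females was hybridised to Affymetrix arrays, and the deposited table holds log2 expression per probe set, made by the authors with RMA, per the submitters' processing notes. The log base was read from the values, which run from 2.58 to 14.7. The array's genome build is not given in the sources used here. Of 18952 probe sets, 13646 had 1 gene in the platform annotation, 402 had several and 4904 had none; symbols were updated through RefSeq gene identifiers. For each gene the probe set with the highest mean was used, and a mean of 6 or more, the filter for testing, left 7485 of 11888 genes. The number of arrays limits the precision.

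Tests used limma 3.58.1 in R 4.3.3 (lmFit, and eBayes with a trend), with Benjamini-Hochberg adjustment over all tested genes and a threshold of 0.05. Genes inside the deletions were left out of the contrasts those deletions enter, leaving 7193 where all 7 were. Single values were tested with exact permutation tests in scipy 1.17.1, two-sided. Samples were grouped by genotype as labelled. Replicates are labelled biological. Scripts were tested on simulated data. Genes named in full are the members inside a deletion, those called in a carrier term, up to 8 called in the other comparisons and the 3 largest differences where none was called. The array-number split divides samples by the number in their labels; what it stands for is not stated there. The members and lists were chosen with earlier results of these data known, and the fit on the germline score was added after the data were seen.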

Additional observations from a re-analysis of the deposited data

Results flagged for a closer look

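HisRS, the histidine enzyme, stood at 8.02 on the log2 scale in replicate 6 of wild type, against 8.24 to 8.37 in the other 5 wild-type arrays. The gap to the nearest array was 0.642 of the range of the 6 arrays, above Dixon's 95% critical value for 6 samples. Of 32 synthetases examined in this way in wild type, 1 stood out, and chance alone flags about 1 in 20 groups.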

How the results depend on the processing

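Alternatives were no filter on low values, the mean of all probe sets, centred array medians, no trend in eBayes, the germline score as a covariate, other uses of the array-number split, leaving out wild-type replicates 4 and 5 (for some results chosen after seeing the data) and leaving out each array. The count of synthetases called between single deletions and wild type, 0, became 1 with the germline covariate and 1 with the replicate number as a block. Summed over the 7 deletions, it was 0 and became 13 with the replicate block, under which all genes' calls also went to 5309, against 48. The block changed no call of the F test. The labels give the numbers no shared source, and 37 of 52 same-numbered pairs of deviations correlated above 0.1, short of every pair. All 10 pairs of replicate 3 (0.553 to 0.842, all with high array numbers) and all 10 of replicate 2 (0.215 to 0.715) among the deletions with 3 arrays did, against 10 of the 22 pairs with ED5071 or ED7665, and 16 of 19 arrays were closest to one of their own number, so a shared source of some numbers is not settled. The deviations of a genotype's arrays from their own mean sum to 0, so the counts for different replicate numbers are not separate evidence. The 2 carrier-term calls became 4 with array medians centred, 19 with the germline covariate, 1 with no filter and 6 without wild-type replicates 4 and 5, and calls over all genes were 3702 with the germline covariate and 2833 without those replicates, against 1051. The 12 calls of the array-number split became 7 with the germline covariate, where AspRS-m turned to -0.033 (adjusted p = 0.688). IleRS between singles and wild type turned to -0.153 with the split as a block and -0.121 among arrays up to 26, uncalled throughout. The 1-copy difference of ArgRS-m, -0.81 against all arrays with 2 copies, was -0.97 against wild type alone and -0.96 as an additive term. The causes were not tested. Leaving out 1 array gave 0 to 0 calls for single deletions against wild type, each deletion, the F test and doubles against singles, 1 to 4 for carrier terms (4 without ED5071 single replicate 1 or wild-type replicate 4), 7 to 15 for the split (7 without ED1770 single replicate 3) and 19 to 23 for the germline slope. The 1-copy differences then ran from -1.02 to -0.95 for SerRS, -0.89 to -0.82 for GlnRS and -0.84 to -0.79 for ArgRS-m. For single named genes, 299 other values kept direction and side of the threshold, 16 lost the call, 1 gained it and 3 reversed.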
